A study of Mus musculus with 30 samples.

Results

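The 36 genes described here are interferon-stimulated genes, genes whose transcription interferon turns on, measured by polyA RNA sequencing of bilateral punches of the nucleus accumbens. The members were taken as a list of symbols, matched to the Ensembl identifiers of the count table through GENCODE M21. All 36 were found among the 55401 genes of the table, and all 36 were among the 23736 genes with enough counts to be tested. They hold 8 GTPases of the GBP and IRG families, 6 IFIT and OAS genes, 4 signalling and transcription factors, 3 antigen processing genes, 2 genes of the ISG15 system, 2 RNA sensors and 11 membrane and other antiviral effectors.

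The animals were male C57Bl/6J mice, 1 per library, and their age was not given. Each had tibial SNI (spared nerve injury, a model of neuropathic pain) or sham surgery, waited 4 weeks, and then received saline, tianeptine at 30 mg/kg or desipramine at 15 mg/kg by intraperitoneal injection 2 times a day for 3 weeks. Tianeptine, used as an antidepressant, is an agonist of mu opioid receptors. Desipramine belongs to the tricyclic antidepressants and inhibits the noradrenaline transporter. The 30 libraries fall into sham saline (n = 5, the study's control), sham tianeptine (n = 6), sham desipramine (n = 4), SNI saline (n = 5), SNI tianeptine (n = 6) and SNI desipramine (n = 4). All animals, controls included, had surgery and 3 weeks of injections.

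Interferons are secreted signals of the antiviral response. Type I interferons bind the receptor of Ifnar1 and Ifnar2 and act through a factor that holds STAT2 and IRF9 and binds the interferon-stimulated response element (ISRE) in promoters. Interferon gamma, the type II interferon of T and NK cells, binds the receptor of Ifngr1 and Ifngr2 and acts through the gamma-activated site (GAS) of promoters, and through IRF1. GBP and IRG GTPases and the antigen processing genes are textbook targets of interferon gamma, while IFIT, OAS and ISG15 genes are textbook targets of type I interferon, with much overlap. In brain, microglia, endothelial cells, border macrophages and neurons can all express such genes.

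The following promoter stretches show the ISRE letters shared by members of different roles, since the levels described later divide along those roles. They are from RefSeq (GRCm38.p6), each 50 bases long and read on the gene's own strand, with every match to the ISRE letters, GAAA then any 2 bases then GAAA, on either strand in capitals.
Gbp2: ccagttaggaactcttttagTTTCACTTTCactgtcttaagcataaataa
Gbp3: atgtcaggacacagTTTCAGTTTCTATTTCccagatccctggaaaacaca
Irgm1: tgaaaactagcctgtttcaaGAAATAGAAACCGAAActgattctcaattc
Igtp: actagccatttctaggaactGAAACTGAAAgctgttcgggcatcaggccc
Irgm2: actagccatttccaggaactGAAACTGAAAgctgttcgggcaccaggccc
Ifit1: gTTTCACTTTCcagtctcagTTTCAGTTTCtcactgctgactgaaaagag
Ifit3: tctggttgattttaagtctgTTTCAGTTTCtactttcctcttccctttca
Isg15: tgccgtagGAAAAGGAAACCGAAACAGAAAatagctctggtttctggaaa
Bst2: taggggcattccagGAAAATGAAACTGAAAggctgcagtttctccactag

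These stretches lie at chr3:142620584-142620633 (Gbp2), chr3:142559985-142560034 (Gbp3), chr11:48871421-48871470 (Irgm1, minus strand), chr11:58199502-58199551 (Igtp), chr11:58214893-58214942 (Irgm2), chr19:34640784-34640833 (Ifit1), chr19:34583387-34583436 (Ifit3), chr4:156200855-156200904 (Isg15, minus strand) and chr8:71537567-71537616 (Bst2, minus strand), all upstream of the RefSeq transcript start. The Igtp and Irgm2 stretches had the same base at 48 of 50 positions. A promoter window of 250 bases before to 50 after the start was held for 29 of the 36 members. The ISRE letters were in 17 of these 29 windows (58.6%), against 3.99% of 27025 gene windows of the same length. The GAS letters TTCNNNGAA were in 10 of 29 (34.5%), against 9.55% of all windows; both motifs were searched on both strands, and a gene counted once however many matches it had, overlapping ones included. All 6 GTPases with a window held the ISRE letters, as did 3 of 5 IFIT and OAS genes (Ifit1, Ifit3, Oas1a), both RNA sensors and none of the 3 antigen processing genes. The ISRE letters were thus held by genes of both patterns described below. A match is a description of letters, and no binding was measured.

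Many members are neighbours. Gbp7, Gbp3 and Gbp2 lie within 107.7 kb of chromosome 3, Ifit2, Ifit3 and Ifit1 within 99.3 kb of chromosome 19, Psmb9, Tap1 and Psmb8 within 19.5 kb of the MHC region of chromosome 17, Rsad2 and Cmpk2 within 37.1 kb of chromosome 12, and Igtp and Irgm2 within 23.2 kb of chromosome 11. In the annotation Igtp and Irgm2 share exon sequence on 1 strand, as does Gbp4 with Gbp8 and Gbp9, while Psmb9 and Tap1 overlap on opposite strands. Irf9, Gbp7, Rtp4 and Parp14 also share exon sequence on 1 strand with a gene outside the list (Rnf31 for Irf9). Irf1, Irf7, Usp18, Ifi35, Gbp2 and Psmb8 overlap such a gene on the opposite strand. How the counting dealt with shared exons, and whether it used strand, was not given, so the split of reads between these partners is uncertain. Oas1a and Ifit3 share no exon sequence with another gene in the annotation but have near-identical copies (Oas1g, Ifit3b). How reads that match both copies were counted was not given, so the counts of Oas1a and Ifit3 are uncertain too.

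Libraries held 24.5 M to 120.7 M counts, of which 3759 to 25328 fell on the 36 genes. The deep libraries, replicates 5 and 6 in the groups given saline or tianeptine, held no desipramine animal and entered the fit as a second library set. Some libraries stand apart in ways that touch the results below. Sham saline replicate 2 had the lowest mitochondrial share, 0.991% of counts, and exceeded all libraries other than sham saline replicate 3 for 11.4% of all genes tested. In SNI desipramine replicate 2 the summed level of 14 markers of medium spiny neurons, the main accumbens cell type, was 1130 CPM (counts per 1 M counts of the library, scaled for composition), against a group median of 4640 and 4470 to 9290 in the 26 libraries of the other groups.

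Levels of the members were low to moderate. Compared per length (median CPM over 30 libraries per kb of exon), Ifi27 stood at 13.2, the membrane protein gene Ifitm3 at 7.95, the nucleotide kinase gene Cmpk2 at 6.58 and Stat2 at 4.86. At the other end stood the GTPase genes Iigp1 at 0.232 and Gbp4 at 0.139, and Ifi44 at 0.0837. Iigp1 and Gbp4, low in most animals, were among the members that varied most between them, while Cmpk2 varied least.

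The score of the list, the mean over the 36 members of log2 CPM centred on each gene's mean over the 30 libraries, was highest in 2 sham saline animals. It was -0.41, 1.1, 0.98, 0.25 and -0.19 in sham saline replicates 1 to 5. In sham tianeptine replicates 1 to 6 it was -0.21, -0.5, -0.26, -0.13, 0.24 and 0.43 (median -0.17). The highest there, replicates 5 and 6, are that group's libraries of the second library set. The second-set libraries of the other groups were at -0.19 (sham saline), -0.3 (SNI saline), and -0.11 and 0.04 (SNI tianeptine). In sham desipramine the score was 0.03, 0.05, 0.11 and -0.4. After SNI it was 0.14, -0.06, -0.07, -0.15 and -0.3 on saline, -0.22 to 0.06 with a median of -0.12 on tianeptine, and -0.04, 0.23, -0.05 and -0.28 on desipramine. No library outside sham saline exceeded 0.43, and the other 3 sham saline animals lay inside the range of the other groups.

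**Figure D1:**
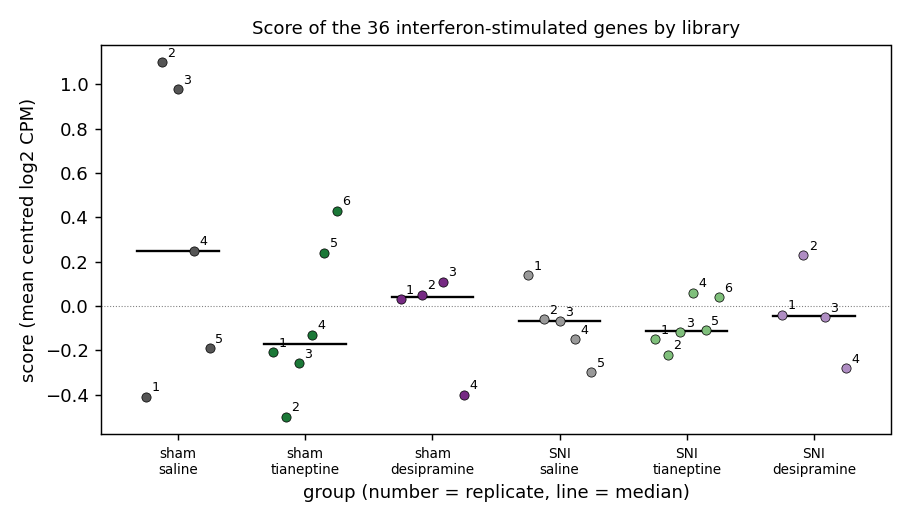
Score of the 36 genes (vertical axis, mean centred log2 CPM) for each library by group (horizontal axis), with the replicate number beside each point and a line at the group median. Sham saline replicates 2 and 3 sit at 1.1 and 0.98, above the other 28 libraries, the highest of which is sham tianeptine replicate 6 at 0.43.

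Spread between animals was widest in sham saline, the group of the highest scores. In sham tianeptine, replicates 6 and 5, both of the second library set, were highest of their group for 21 and 11 of the 36 members. The median coefficient of variation of the 36 members was 55.6% in sham saline, against 15.3% over all genes tested. It was 30.4% in sham tianeptine (15.4% over all genes), 20.9% in sham desipramine (12.5%), 16.5% in SNI saline (14.1%), 14% in SNI tianeptine (13.6%) and 20% in SNI desipramine (15.4%). Within sham saline the spread ran from 6.13% for Cmpk2 to 122% for Gbp4.

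**Figure D2:**
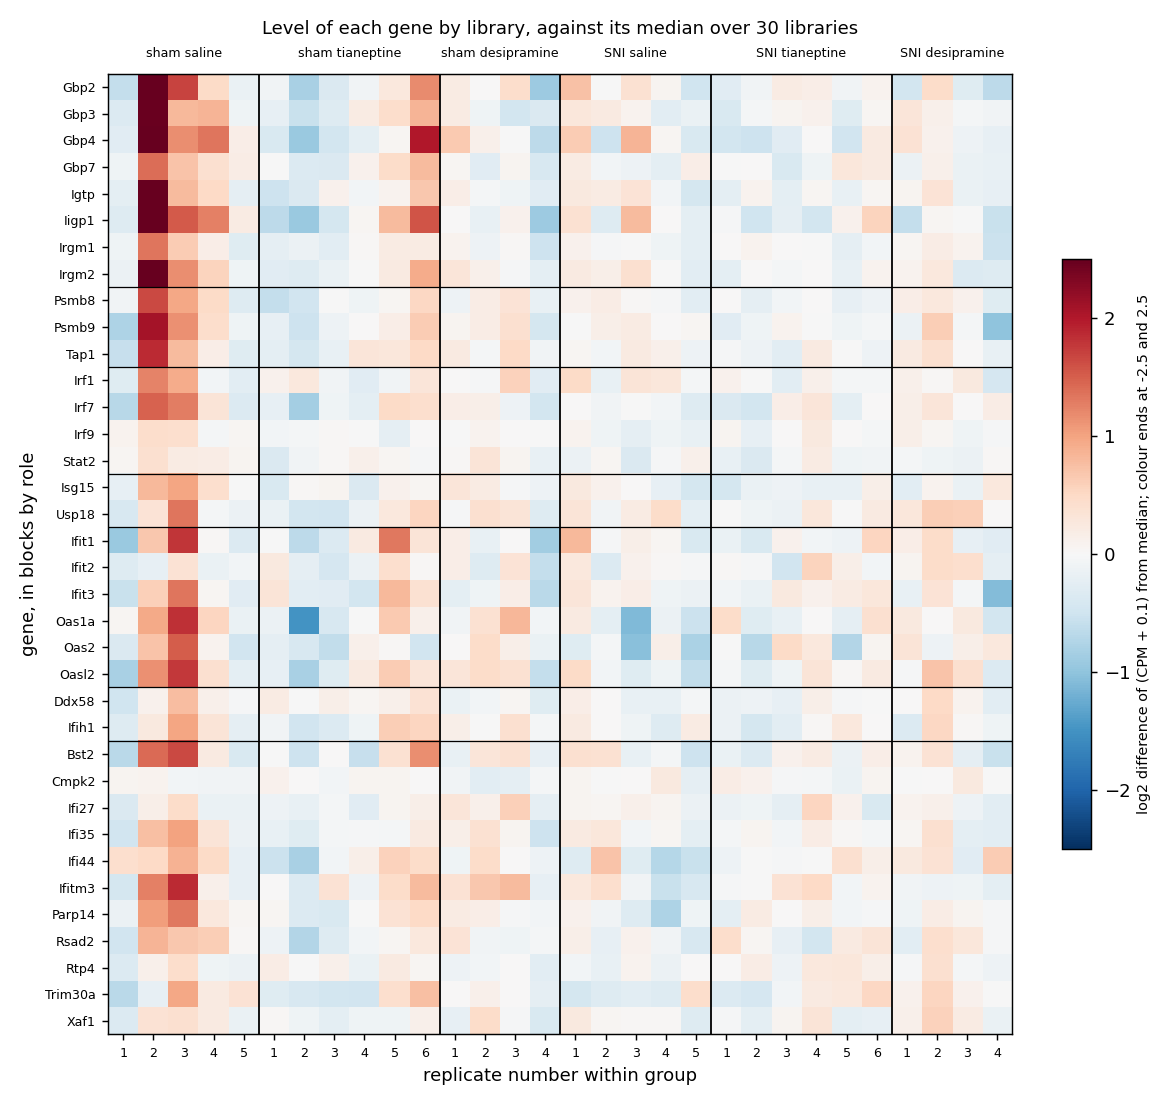
Each row is a member, in blocks by role, and each column a library in order of group and replicate; colour gives the log2 difference of (CPM + 0.1) from the gene's median over 30 libraries, ending at -2.5 and 2.5. The darkest red cells are GBP and IRG genes in sham saline replicate 2, and the IFIT and OAS block is reddest in sham saline replicate 3.

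The GBP and IRG GTPases act in defence against intracellular microbes. They held the 6 members whose highest library was farthest, as a fold, above their median of 30 libraries. All 8 had their highest value of 30 libraries in sham saline replicate 2. Their median level there was 6.64-fold the median of 30 libraries, against 2.02-fold in sham saline replicate 3. Irgm2 was at 5.05, 33.9, 12.7, 8.27 and 5.13 CPM in sham saline replicates 1 to 5. It was at 4.45 to 10.8 CPM (median 5.25) in sham tianeptine and at 6.87, 6.09, 5.44 and 4.66 CPM in sham desipramine. After SNI it was at 6.54, 6.2, 7.38, 5.55 and 4.62 CPM on saline, 4.7 to 5.92 CPM (median 5.47) on tianeptine, and 5.95, 6.66, 4.37 and 4.41 CPM on desipramine. Replicates 2, 3 and 4 of sham saline were thus above every SNI saline value, while replicates 1 and 5 lay among them.

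Gbp4 had the widest range of the list as a fold of highest over lowest library. It was at 0.841, 12.4, 2.44, 2.78 and 1.18 CPM in sham saline replicates 1 to 5, which made replicate 2 11.9-fold the median of 30 libraries. In SNI saline it was at 1.68, 0.692, 1.97, 1.09 and 0.78 CPM. Sham tianeptine replicate 6 reached 4.48 CPM, while the other 5 animals of that group were at 0.501 to 1.08 CPM.

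Gbp2 and Igtp ordered the sham saline animals as Irgm2 did. Gbp2 was at 1.6, 22.2, 8.17, 3.44 and 2.16 CPM in sham saline, and at 4.14, 2.44, 3.23, 2.57 and 1.7 CPM in SNI saline. Igtp was at 1.64, 14.2, 3.49, 2.8 and 1.66 CPM in sham saline, and at 2.36, 2.29, 2.52, 1.87 and 1.42 CPM in SNI saline. For both genes sham saline replicates 2 and 3 were above all SNI saline animals, and replicates 1 and 5 were not. Iigp1, on chromosome 18, was at 1.05, 12, 4.07, 3.39 and 1.58 CPM in sham saline, and 1.79, 1.05, 2.4, 1.36 and 1.12 CPM in SNI saline. The other 3 GTPases, Gbp3, Gbp7 and Irgm1, were at 5.64-, 2.67- and 2.55-fold their median of 30 libraries in sham saline replicate 2.

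The antigen processing genes encode the immunoproteasome subunits Psmb8 and Psmb9 and the peptide transporter Tap1, which feed peptides to MHC class I. All 3 were highest of 30 libraries in sham saline replicate 2 and second in replicate 3. Tap1 was at 2.19, 12.3, 5.79, 3.75 and 2.67 CPM in sham saline replicates 1 to 5, and at 3.43, 3.13, 3.87, 3.62 and 3.02 CPM in SNI saline. Psmb9 was at 0.715, 5.75, 2.99, 1.78 and 1.19 CPM in sham saline, and at 1.29, 1.45, 1.51, 1.3 and 1.34 CPM in SNI saline. For both genes sham saline replicates 2 and 3 were above the narrow range of the SNI saline animals and replicates 1 and 5 below it. Psmb8 was at 1.35, 4.77, 2.94, 2.05 and 1.13 CPM in sham saline.

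The signalling and transcription factor genes were also highest in sham saline replicate 2, with smaller differences. Irf1, which drives antigen presentation genes, was at 3.45, 10.3, 8.25, 4.08 and 3.58 CPM in sham saline and at 6.04, 3.76, 5.41, 5.22 and 4.12 CPM in SNI saline. Irf7, the amplifier of type I interferon, was at 1.05, 5.06, 4.46, 2.25 and 1.38 CPM in sham saline and at 1.79, 1.66, 1.75, 1.69 and 1.4 CPM in SNI saline. For these genes replicates 2 and 3 lay above the SNI saline animals and the other 3 sham saline animals did not all do so. Irf9, a subunit of the factor that binds the ISRE, was at 12.5, 15.8, 15.7, 11.4 and 12.2 CPM in sham saline and at 12.4, 10.9, 9.99, 10.8 and 10.3 CPM in SNI saline. Its STAT partner Stat2, the most abundant member of this role, was at 30, 38, 33.2, 32.8 and 30 CPM in sham saline and at 26.2, 29.7, 22.3, 28.3 and 31.3 CPM in SNI saline. In sham saline replicate 2 they were at 1.35- and 1.32-fold their medians of 30 libraries.

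The IFIT and OAS genes, whose proteins bind or sense viral RNA, had another order. In 5 of the 6 the highest of 30 libraries was sham saline replicate 3, and none was highest in replicate 2. Their median level in replicate 3 was 3.24-fold the median of 30 libraries, against 1.66-fold in replicate 2. Ifit1 was at 0.841, 2.77, 6.07, 1.72 and 1.31 CPM in sham saline replicates 1 to 5, and at 3.04, 1.66, 1.87, 1.75 and 1.28 CPM in SNI saline. Sham tianeptine replicate 5 reached 4.35 CPM, with the other 5 animals of that group at 1.03 to 2.14 CPM. Oasl2 was at 1.72, 7.03, 10.9, 4.16 and 2.62 CPM in sham saline, and at 4.39, 2.98, 2.52, 2.87 and 1.99 CPM in SNI saline. Oas1a, an oligoadenylate synthetase, was at 0.463, 0.947, 1.83, 0.694 and 0.389 CPM in sham saline and at 0.536, 0.361, 0.154, 0.392 and 0.277 CPM in SNI saline. Ifit2 had the highest CPM of the role, but per kb of exon its median was below that of Ifit3 (1.83 against 2.06). Ifit2 was at 5.76, 6.23, 9.31, 6.38 and 6.82 CPM in sham saline and was highest in SNI tianeptine replicate 4, at 10.6 CPM. So Ifit2 did not share the pattern of its neighbours Ifit1 and Ifit3.

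The ISG15 system and the RNA sensors followed the IFIT and OAS order. Isg15, a ubiquitin-like modifier, was at 1.77, 3.72, 4.18, 2.78 and 2.04 CPM in sham saline and at 2.47, 2.23, 2.09, 1.78 and 1.5 CPM in SNI saline. Usp18, which removes ISG15 and dampens the type I receptor, was at 0.589, 1.06, 2.22, 0.777 and 0.72 CPM in sham saline, with replicate 3 at 2.73-fold its median of 30 libraries. The RNA helicase sensors Ddx58 (RIG-I) and Ifih1 (MDA5) were at 9.06 and 6.09 CPM in sham saline replicate 3, 1.73- and 2.01-fold their medians. In replicate 2 they were at 5.68 and 3.61 CPM, inside the range of the other 28 libraries.

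Among the 11 membrane and other antiviral effectors, 7 were highest of 30 libraries in sham saline replicate 3 and 1, Rsad2 (viperin), in replicate 2. Ifitm3, which blocks virus entry at membranes, was at 3.95, 13, 19.9, 5.91 and 4.65 CPM in sham saline and at 6.47, 7.29, 5.07, 3.62 and 4.03 CPM in SNI saline. Bst2 (tetherin) was at 1.09, 4.95, 5.84, 2.11 and 1.35 CPM in sham saline and at 2.39, 2.38, 1.57, 1.72 and 1.23 CPM in SNI saline. Parp14, an ADP-ribosyltransferase, was at 3.57, 8.23, 9.97, 4.8 and 4.11 CPM in sham saline and at 4.29, 3.7, 3.13, 2.29 and 3.65 CPM in SNI saline. In all 3 genes sham saline replicates 2 and 3 were the 2 highest of 30 libraries. Cmpk2, by contrast, was at 28.8, 28.9, 26.1, 25.7 and 25.8 CPM in sham saline, within 22.8 to 32.4 CPM over all 30 libraries. Ifi27 and Xaf1 likewise had their highest value outside sham saline, at 29.4 CPM in sham desipramine replicate 3 and 13 CPM in SNI desipramine replicate 2. Ifi35, Ifi44, Rtp4 and Trim30a were highest in sham saline replicate 3, at 1.36- to 2.06-fold their medians of 30 libraries.

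**Figure D3:**
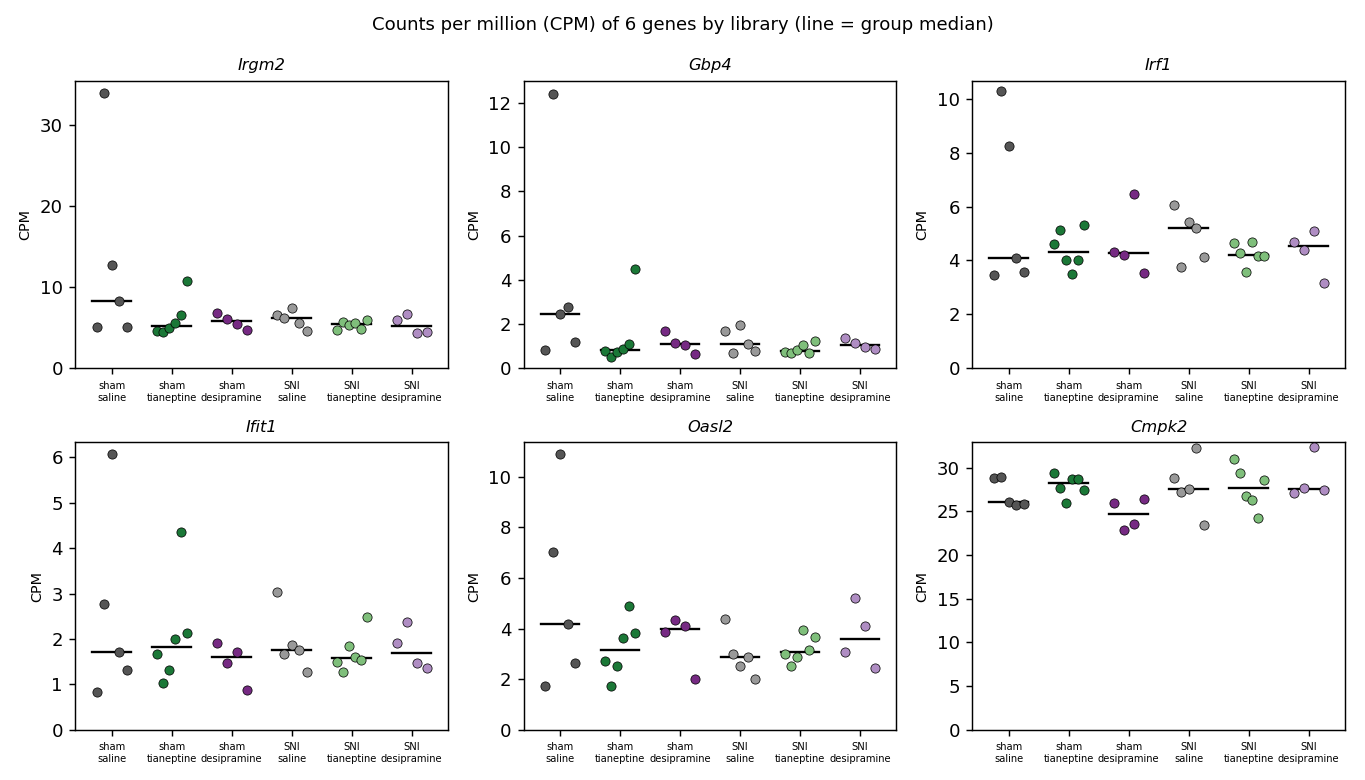
CPM (vertical axes, from 0) of 6 members by group, 1 point per library and a line at the group median. Irgm2, Gbp4 and Irf1 have their highest point in sham saline replicate 2, Ifit1 and Oasl2 in sham saline replicate 3, and Cmpk2 stays within 22.8 to 32.4 CPM.

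Counted over the list, 16 members were highest of 30 libraries in sham saline replicate 2, 16 in replicate 3 and 4 elsewhere (Ifit2, Ifi27, Xaf1, Cmpk2). Replicate 2 was above the other 28 libraries for 24 members, against 11.4% of all genes tested, and replicate 3 for 27, against 5.13%. For 19 members both were above the other 28. Replicate 2 exceeded replicate 3 for 17 members, among them 8 of 8 GTPases, 3 of 3 antigen processing genes and 4 of 4 transcription factors, but 0 of 6 IFIT and OAS genes. For the transcription factors replicate 2 was only 1.01-fold (Irf9) to 1.24-fold (Irf1) replicate 3, against 1.62-fold (Gbp7) to 5.08-fold (Gbp4) for the GTPases. Each of these patterns is that of 1 animal and has no replicate.

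**Figure D4:**
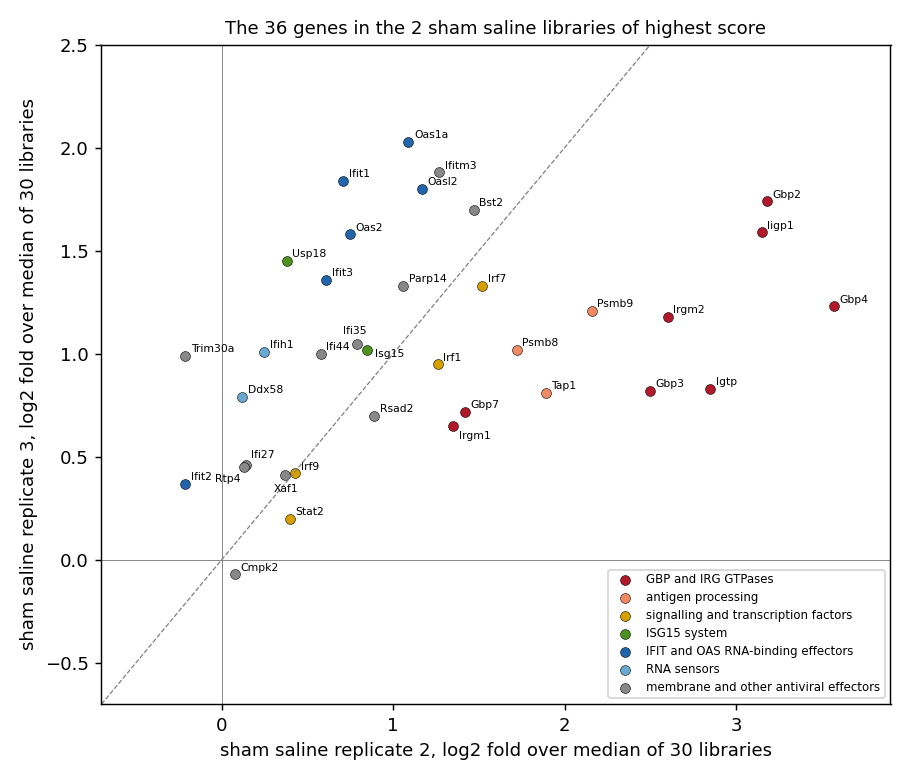
Log2 fold of each member over its median of 30 libraries, in sham saline replicate 2 (horizontal axis) and replicate 3 (vertical axis), coloured by role, with a dashed line where both are equal. GBP and IRG GTPases lie to the right of the line, up to 3.57 for Gbp4, and IFIT and OAS genes lie above it, up to 2.03 for Oas1a.

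The interferons themselves were hardly counted. Of 21 interferon genes listed, 12 had no count in any library and the 21 together had 34 counts over the 30 libraries. Ifnb1 had 1 count and Ifng 10 counts in all. Sham saline replicate 2 had 0 counts over the 21 genes, which at 3 counts allows up to 0.109 CPM, and replicate 3 had 1 count. Such limits cover counting error only.

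Of the 6 receptor genes tested, the 2 type I receptor genes and Ifngr1 had narrow ranges and the others wider ones. Ifnar1 was at 52.6, 51.4, 57.8, 52.5 and 55.7 CPM in sham saline replicates 1 to 5 and at 47.1 to 55.5 CPM in the other 25 libraries. Ifngr1 was at 17.8, 20, 22.1, 18 and 17.2 CPM in sham saline, against 15.3 to 20.6 CPM elsewhere, and Ifnar2 at 13.6, 16.9, 17.3, 13.4 and 13.9 CPM, against 12.5 to 15.7 CPM. Ifngr2 ran from 21.7 to 42.3 CPM over the 30 libraries, Il10rb from 4 to 7.76 CPM and the type III receptor gene Ifnlr1 from 0.211 to 1.6 CPM. Replicate 3 was above the other 28 libraries for 4 of 6 receptor genes tested and replicate 2 for 1. Of 11 JAK-STAT and inhibitor genes tested, replicate 2 was above the other 28 libraries for 2 and replicate 3 for 1. The kinase Jak1 was at 146 to 162 CPM in sham saline and 141 to 175 CPM elsewhere, a narrower range than those of the GTPases.

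Other interferon-stimulated genes, a list of 59 tested genes outside the 36, divided in a similar way. Replicate 2 was above the other 28 libraries for 24 of them and replicate 3 for 35. Gbp5 was at 23.5 CPM in replicate 2 and 6.23 CPM in replicate 3, against 2.08 to 7.46 CPM in the 25 libraries outside sham saline. The MHC class I activator Nlrc5 was at 7.94 and 2.66 CPM, against 0.617 to 4 CPM. The order was the other way for the antiviral GTPase Mx1, at 0.474 CPM in replicate 2 and 1.8 CPM in replicate 3, against 0.115 to 0.928 CPM, and for Ifitm1, at 1.09 and 6.67 CPM, against 0.437 to 2.81 CPM. The MHC class I gene H2-K1 was high in both, at 66.5 and 48.4 CPM, against 15.1 to 36.9 CPM.

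Markers of some other cell types were also high in the same libraries. Of all genes tested, 11.4% were above the other 28 libraries in replicate 2 and 5.13% in replicate 3. In both replicates 0 of 12 oligodendrocyte, 0 of 14 medium spiny neuron and 0 of 11 choroid plexus markers were so, and 1 of 12 astrocyte markers. In sham saline replicate 3, 16 of 17 fibroblast and meninges markers were above the other 28 libraries (Dcn at 41.3 CPM, against 3.29 to 13.1 CPM outside sham saline), as were 10 of 13 markers of neutrophils, monocytes and border macrophages (Cd74 at 33.6 CPM, against 0.846 to 7.72 CPM, and Ccr2 at 2.3 CPM, against 0.0302 to 0.875 CPM), 7 of 16 endothelial, 6 of 12 mural and 5 of 18 microglial markers. The summed level of the fibroblast list ran from 194 to 1830 CPM in sham saline and from 218 to 608 CPM in SNI saline, and that of the myeloid list from 41.6 to 156 CPM and from 21.6 to 46.9 CPM. In replicate 2, 0 of 17 fibroblast markers and 6 of 13 myeloid markers were above the other 28 libraries (Cd74 at 11.7 CPM, Plac8 at 1.71 CPM), as were 10 of 18 microglial, 9 of 16 endothelial and 3 of 12 mural markers. The microglial list summed to 646 to 885 CPM in sham saline and 607 to 710 CPM in SNI saline. The sum reached 1040 CPM in sham tianeptine and 828 CPM in SNI desipramine. Lymphocyte markers other than Cd4 and Lck were at or below 0.816 CPM in all 30 libraries, and 0 of the 6 with enough counts to be tested were above the other 28 libraries in either. The mean centred log2 CPM of these 6 was 0.46 in replicate 2 and 0.36 in replicate 3, against -0.55 to 0.39 in the other 28 libraries. Of the lymphocyte markers under the count filter, replicate 3 was the highest of 30 libraries for Cd3d (0.138 CPM, next 0.0903 CPM), Cd3g (0.0831 CPM, next 0.0729 CPM) and Cd8a (0.194 CPM, next 0.168 CPM), but not for Cd3e (0.111 CPM) or Nkg7 (0.111 CPM). Gzma was at 0.182, 0.166 and 0.194 CPM in sham saline replicates 2, 3 and 4, and at most 0.0556 CPM outside sham saline, all values of a few counts. Sham tianeptine replicate 6, the highest of the other 28 libraries for 13 members, had a choroid plexus list sum of 744 CPM, against a group median of 57.1 CPM. The part of these cells in the members' levels was not tested, and in bulk tissue more cells of a type and more RNA per cell cannot be told apart.

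SNI was compared with sham on saline, which asks what the injury alone did. Of the 36 members, 33 were lower in SNI saline, with a median log2 fold change of -0.58 against 0 over all genes tested. None passed the test at an adjusted p under 0.05 (0 of 23736 genes did, 0%), and the smallest adjusted p of a member was 0.418. At an unadjusted p under 0.05, 23 members were lower and 0 higher, against 5.19% and 4.55% of all genes. No member had groups that did not overlap (0.404% of all genes did so with SNI lower, 0.341% with SNI higher). DESeq2 and limma-voom, run on the same counts, also called no member.

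By role, all 8 GTPases were lower in SNI saline, 8 of them at an unadjusted p under 0.05, with a median of -1.13. The medians were -0.72 for antigen processing, -0.64 for IFIT and OAS genes, -0.44 for the membrane and other effectors, -0.39 for the ISG15 system, -0.28 for transcription factors and -0.26 for RNA sensors. Parp14 averaged 6.14 ± 2.81 CPM in the sham and 3.41 ± 0.748 CPM in the SNI animals (SD, n = 5 each), a log2 fold change of -0.85 ± 0.22 (SE, edgeR adjusted p = 0.418). Irf9 differed by -0.31 ± 0.09 and Oas1a by -1.34 ± 0.42, with the same adjusted p. Iigp1 differed by -1.56 ± 0.49, Gbp7 by -0.65 ± 0.21 and Irgm2 by -1.1 ± 0.36, with an adjusted p of 0.436. For Irgm2 the SD of sham saline was 12.1 CPM around a mean of 13, so the difference did not exceed the spread between animals.

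The size of these differences, and their direction once both high animals were left out, depended on those animals. They were chosen here for their high values, so that leaving them out of the control group lowers it by construction. Without the library of highest score in each group, which takes replicate 2 from sham saline, the median was -0.39 with 34 of 36 members lower. Without sham saline replicates 2 and 3 the median of the 36 was 0.05, with 15 members lower and 21 higher in SNI, and Irgm2 differed by -0.01 ± 0.23, Iigp1 by -0.33 ± 0.43 and Parp14 by -0.27 ± 0.18. Only Irf1 then had an unadjusted p under 0.05, with SNI higher, and no member passed the adjusted test. Of all genes, 4.99% were higher and 3.73% lower at that unadjusted p. Without replicate 2 alone the median was -0.35 and 6 members were lower at an unadjusted p under 0.05. Without replicate 3 alone it was -0.39 with 13 such members. The share over all genes was not taken for these fits. Leaving out either animal alone kept the direction, but the other high animal then stayed among the controls. Cell markers were lower in the same comparison, with 0 called: 17 of 17 fibroblast (median -1.33), 12 of 13 myeloid (-0.98), 12 of 12 mural (-0.43), 16 of 16 endothelial (-0.42) and 16 of 18 microglial markers (-0.06). Their part in the members' differences was not tested. Of the wider pathway, 48 of 59 other interferon-stimulated genes were lower (0 passed, median -0.33), among them Helz2 by -0.57 ± 0.14 and Ifi203 by -1.06 ± 0.30, both with an adjusted p of 0.418. The medians of the 6 receptor genes and of 11 JAK-STAT genes were -0.08 and -0.07, with Ifnar1 at -0.12 ± 0.04 (adjusted p = 0.436).

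**Figure D5:**
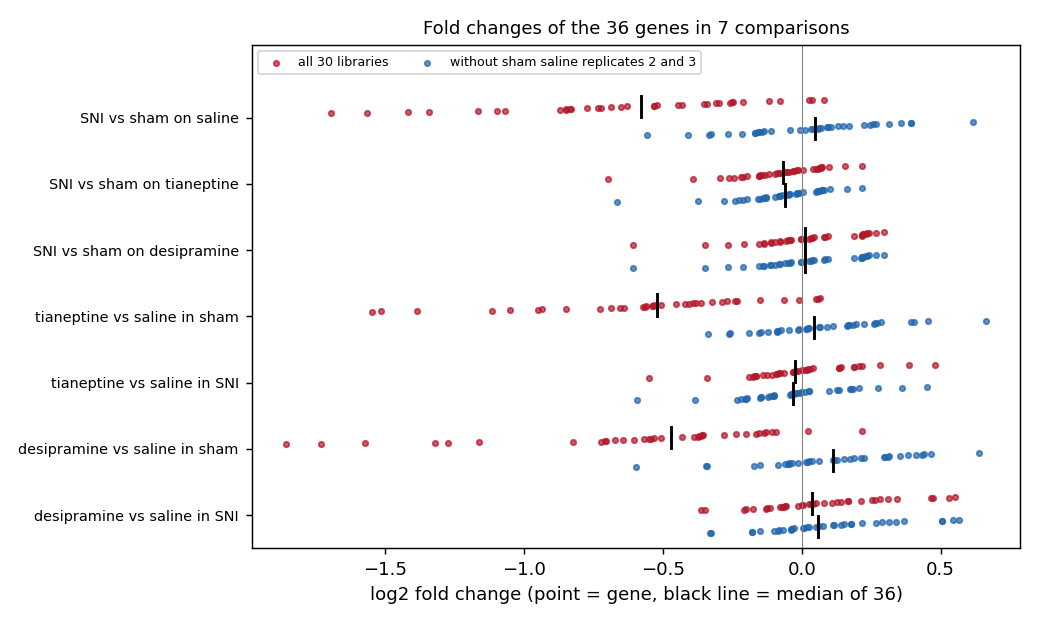
Log2 fold changes (horizontal axis) of the 36 members in 7 comparisons (rows), 1 point per gene and a black line at the median, from all 30 libraries (red) and without sham saline replicates 2 and 3 (blue). The red points lie to the left in the 3 comparisons that use sham saline, with medians of -0.58, -0.52 and -0.47, and the blue medians there are 0.05, 0.04 and 0.11.

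Each drug was compared with saline in sham mice. These comparisons share the sham saline animals with each other and with the one above, so they are not independent of it. On tianeptine 33 of 36 members were lower, with a median of -0.52, and on desipramine 34 of 36, with a median of -0.47. None passed the test in either (0% of genes called in each). At an unadjusted p under 0.05, 19 members were lower with tianeptine (3.12% of all genes) and 13 with desipramine (3.29%), and 0 were higher in either (3.72% and 4.33% of all genes). No member had groups that did not overlap, against 0.173% of all genes lower and 0.16% higher with tianeptine, and 0.834% and 0.868% with desipramine. Cell markers were lower beside them, with 0 called in either: with tianeptine 17 of 17 fibroblast (median -1.14), 12 of 13 myeloid (-0.91), 12 of 12 mural (-0.33), 16 of 16 endothelial (-0.31) and 17 of 18 microglial markers (-0.2, 9 at an unadjusted p under 0.05). With desipramine they were 17 of 17 fibroblast (-0.69), 12 of 13 myeloid (-0.51), 9 of 12 mural (-0.22), 9 of 16 endothelial (-0.01) and 13 of 18 microglial markers (-0.05). Their part was not tested.

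The GTPases again had the lowest medians, -1.08 with tianeptine and -1.3 with desipramine, with 8 of 8 at an unadjusted p under 0.05 in each. With tianeptine Iigp1 averaged 1.75 ± 1.37 CPM (SD, n = 6) against 4.42 ± 4.43 CPM (SD, n = 5) in sham saline, a log2 fold change of -1.51 ± 0.50. Irgm2 differed by -1.05 ± 0.36, Igtp by -1.12 ± 0.39, Psmb8 by -0.73 ± 0.26, Isg15 by -0.53 ± 0.18 and Irf9 by -0.24 ± 0.08, all with an edgeR adjusted p of 0.714. With desipramine Iigp1 averaged 1.16 ± 0.348 CPM (SD, n = 4), a log2 fold change of -1.85 ± 0.55. Gbp2 differed by -1.57 ± 0.55, Igtp by -1.32 ± 0.44, Gbp3 by -1.27 ± 0.39, Irgm2 by -1.16 ± 0.39 and Gbp7 by -0.7 ± 0.23, all with an adjusted p of 0.547.

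Without the library of highest score in each group the medians were -0.44 for tianeptine, with 33 members lower, and -0.35 for desipramine, with 35 lower. Without sham saline replicates 2 and 3 the medians were 0.04 for tianeptine, with 14 members lower, and 0.11 for desipramine, with 12 lower. Irgm2 then differed by -0.01 ± 0.23 and -0.04 ± 0.25, and Igtp by 0.02 ± 0.23 and -0.09 ± 0.25. Gbp2 on desipramine was 0.13 ± 0.40, now higher. The members at an unadjusted p under 0.05 in that fit were Rtp4 with tianeptine, and Ifitm3 and Ifi27 with desipramine, all higher. Of all genes, 2.69% were higher at that p with tianeptine and 5.96% with desipramine, so the members' shares were near those of all genes. Leaving out replicate 2 alone gave medians of -0.32 and -0.29, and leaving out replicate 3 alone -0.23 and -0.17.

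In comparisons without the sham saline animals the members lay near 0. On tianeptine, SNI against sham gave 25 members lower and 11 higher, a median of -0.07 and 0 members at an unadjusted p under 0.05 (0% of genes called; 0.906% lower and 0.303% higher at an unadjusted p). The groups overlapped for every member, and did not for 0.00843% of all genes, lower, and 0.0169%, higher. Ddx58, the member of smallest p, differed by -0.21 ± 0.14 (adjusted p = 1). Gbp4 averaged 0.875 ± 0.215 CPM in SNI and 1.41 ± 1.52 CPM in sham (SD, n = 6 each), a difference of -0.7 ± 0.56 that was 0.16 without sham tianeptine replicate 6. Tianeptine against saline after SNI gave 21 lower and 15 higher, a median of -0.02 and 0 members at an unadjusted p under 0.05 (0% called; 1.2% lower and 1.67% higher), with overlap for every member (0.118% of all genes did not overlap lower, 0.19% higher). Irf9 differed there by 0.14 ± 0.08 and Rtp4 by 0.19 ± 0.12 (adjusted p = 1 for both).

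On desipramine SNI was compared with sham, the comparison with the most genes called (2682, or 11.3%). None of the 36 members was called. They were evenly placed, 18 lower and 18 higher, with a median of 0.01 against 0.01 over all genes tested. Cmpk2 was at 25.9, 22.8, 23.5 and 26.4 CPM in sham and at 27.1, 27.7, 32.4 and 27.4 CPM in SNI, the only member whose groups did not overlap (5.49% of all genes did so with SNI higher and 4.47% with SNI lower). It differed by 0.22 ± 0.08 (SE, edgeR adjusted p = 0.0741), and it was the only member at an unadjusted p under 0.05 (15.7% of all genes were higher and 12% lower). Ifitm3 averaged 4.89 ± 0.258 CPM in SNI and 7.42 ± 2.11 CPM in sham (SD, n = 4 each), a difference of -0.61 ± 0.37 (adjusted p = 0.299).

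Outside the 36, 15 of 21 genes of nucleic acid sensing were higher and 6 lower (median 0.18), and 3 of the 21 were called, a share near that of all genes. These were the adaptor Mavs, higher by 0.54 ± 0.14 (adjusted p = 0.0161), Traf3 by 0.49 ± 0.13 (adjusted p = 0.0184) and the RNA-activated kinase Eif2ak2 by 0.43 ± 0.14 (adjusted p = 0.0435). Of 59 other interferon-stimulated genes only Oas1c was called, higher by 0.88 ± 0.18 (adjusted p = 0.00725), and of 11 JAK-STAT genes only the phosphatase Ptpn1, lower by 0.31 on the log2 scale. In the same comparison 14 of 14 medium spiny neuron markers were lower (median -0.64, 0 called) and 12 of 12 oligodendrocyte markers higher (median 0.27, 0 called). Of the astrocyte markers 10 of 12 were higher (median 0.29, 3 called). Fibroblast markers were lower for 15 of 17 (median -1.06, with 1 called, higher). Myeloid markers were lower for 12 of 13 (median -0.95, 0 called), while the median of the 36 members was 0.01. Endothelial and mural markers were lower for 15 of 16 (-0.14) and 10 of 12 (-0.24), and microglial ones higher for 11 of 18 (0.03). The part of these cells in these values was not tested. Without SNI desipramine replicate 2, the library low in medium spiny neuron markers, 0 genes were called in this comparison, Cmpk2 differed by 0.22 and the median of the members was -0.11. Desipramine against saline after SNI gave 15 members lower and 21 higher, a median of 0.04 and 0 called (0% of genes; 3352 genes without SNI desipramine replicate 4). Trim30a, a member of an interferon-induced TRIM family, averaged 2.63 ± 0.5 CPM with desipramine (SD, n = 4), against 2.05 ± 0.608 CPM in the 5 saline animals, a difference of 0.53 ± 0.23 (adjusted p = 0.23) that was 0.37 without SNI desipramine replicate 2. It was the only member at an unadjusted p under 0.05 (10.7% of all genes were higher and 6.81% lower), and its groups overlapped, as did those of every other member (1.02% of all genes did not overlap higher, 1.12% lower). Ifi44 differed by 0.55 ± 0.35 (adjusted p = 0.419).

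Averaged over treatments or surgeries, the members leaned lower with each factor. Each average includes the sham saline animals, so it is not independent of the comparisons above that use them. SNI against sham over all treatments gave 31 of 36 lower, a median of -0.2 and 0 members called, against 437 genes (1.84%). Ifitm3 differed by -0.52 ± 0.19 (adjusted p = 0.113) and Parp14 by -0.32 ± 0.13 (adjusted p = 0.15), and 8 members were lower and 0 higher at an unadjusted p under 0.05 (10.1% and 12.5% of all genes). Tianeptine against saline over both surgeries gave 33 lower, a median of -0.22 and 0 called (0%), with Iigp1 at -0.93 ± 0.37 and Irgm2 at -0.61 ± 0.25 (adjusted p = 0.97 for both); at an unadjusted p under 0.05, 8 members were lower and 0 higher (2.01% and 2.74% of all genes). Desipramine over both surgeries gave 27 lower, a median of -0.19 and 0 called (7 genes, 0.0295%), with Iigp1 at -1.1 ± 0.39 (adjusted p = 0.278) and Gbp2 at -0.97 ± 0.39 (adjusted p = 0.326); at an unadjusted p under 0.05, 6 were lower and 0 higher (5.36% and 7.16% of all genes). Without sham saline replicates 2 and 3 these medians were 0, 0.04 and 0.1.

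Whether each drug's difference itself depended on surgery was tested as an interaction, which also includes the sham saline animals and is not independent of those comparisons. The difference was more positive after SNI than in sham for 33 of 36 members with tianeptine (median 0.51) and 35 of 36 with desipramine (median 0.61). No member passed the test (0% of genes called in each), and 5 and 6 members were higher at an unadjusted p under 0.05 (2.24% and 7.28% of all genes), with 0 lower in either (1.96% and 5.01%). Irf9 differed by 0.38 ± 0.12 with tianeptine (adjusted p = 0.989), and Parp14 by 0.79 ± 0.30 (adjusted p = 0.989). Gbp3 differed by 1.31 ± 0.54 and Parp14 by 0.81 ± 0.34 with desipramine (adjusted p = 0.347 for both). Without sham saline replicates 2 and 3 the medians were -0.08 and 0.04, and Gbp3 differed by 0.41 ± 0.38.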

How the data were processed

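PolyA RNA of nucleus accumbens punches was prepared with a stranded mRNA kit, per the labels' protocols. The deposited table holds whole-number counts per gene, made with Trim Galore, HISAT2, SAMtools and featureCounts on mm10, per the submitters' processing notes; versions, annotation release and strand setting were not given in the sources used here. A deposited FPKM table was not used. Of 55401 gene IDs, 54349 matched GENCODE M21 exactly, 792 without the version and 260 not at all (0.051% of counts). Members and lists were chosen with earlier results of these data known.

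Counts were fitted in edgeR 4.0.16 (R 4.3.3) with TMM scaling, filterByExpr and robust quasi-likelihood F tests, 2-sided, over all 30 libraries with a term for library set. Benjamini-Hochberg adjustment covered all 23736 genes tested, at a threshold of 0.05 (residual df 23, biological coefficient of variation 17.5%). CPM values are TMM-scaled. Values after ± are SD for levels and SE for log2 fold changes. No p was computed for the list. The scripts were tested on simulated counts. Replicates are separate animals; the closest pair in a group differed beyond sampling noise (chi-square per df 6.89). Fold changes are given for every member past the threshold and for 2 to 6 members of smallest p per comparison; 1 pathway gene of the list is not reported here. Alternatives were limma-voom (limma 3.58.1), DESeq2 1.42.0 and its size factors, no filter, no set term, the first set only, a replicate block, and leaving out libraries. Same-numbered animals did not deviate together, so numbers were not treated as pairs.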

Additional observations from a re-analysis of the deposited data

Results flagged for a closer look

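Single libraries were far from the rest of their group for 16 sets of member values and for 1 list score, of 222 sets examined, where chance at 5% gives 11.1. In sham saline replicate 2, these were Igtp at 14.2 CPM (next 3.49), Gbp4 at 12.4 CPM (next 2.78), Gbp3 at 21.1 CPM (next 6.77), Irgm2 at 33.9 CPM (next 12.7) and Iigp1 at 12 CPM (next 4.07), 5 of the 8 GTPases. In sham saline replicate 3 it was Usp18 at 2.22 CPM (next 1.06). In sham tianeptine replicate 6, Gbp4 was at 4.48 CPM, Irgm2 at 10.8 CPM and Gbp2 at 5.67 CPM, and in replicate 5 Ifit1 was at 4.35 CPM. Rsad2 was at 1.94 CPM in sham desipramine replicate 1, and the score of the list was -0.4 in replicate 4, the lowest of that group (next 0.03). After SNI, Ifi44 was at 0.903 CPM in saline replicate 2, Trim30a at 3.13 CPM in saline replicate 5, Gbp7 at 5.36 CPM and Rtp4 at 5.7 CPM in desipramine replicate 2, and Cmpk2 at 32.4 CPM in desipramine replicate 3, each the highest of its group.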

How the results depend on the processing

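No member was called in any of the 12 comparisons under any alternative or leave-one-out fit. Medians of the 36 kept their direction or stayed within the spread except without sham saline replicates 2 and 3, a setting that removes 2 of 5 controls. They were then 0.05 for SNI against sham on saline, 0.04 and 0.11 for tianeptine and desipramine in sham, and -0.08 and 0.04 for the 2 interactions; Igtp on tianeptine in sham was 0.02 and Gbp2 on desipramine in sham 0.13, both reversed. Gbp4, SNI against sham on tianeptine, was reversed at 0.21 in the first library set only and 0.08 without the library of highest score in each group; leaving out single libraries it ran from -0.88 to 0.16, the latter without sham tianeptine replicate 6. Leave-one-out medians ran from -0.76 to -0.35 for SNI against sham on saline, -0.73 to -0.23 for tianeptine and -0.63 to -0.17 for desipramine in sham. Counts over all genes moved more: SNI against sham on desipramine had 2682 calls, 1701 with no filter, 0 without the highest-score libraries, and 0 to 5903 leaving out single libraries. SNI averaged over treatments had 437, against 1601 in DESeq2, 77 with no set term and 0 with no filter, limma-voom, the first set only, or without high libraries; the replicate block also gave 0, and leaving out single libraries 0 to 3756 (25 of 30 fits beyond 1.5 times). Desipramine averaged had 7, against 132 in DESeq2, 4 with the replicate block, 0 in the first set only and 2 to 360 leaving out single libraries. Desipramine in SNI and its interaction, at 0, reached 3352 and 957; the highest of these 5 counts all came without SNI desipramine replicate 4. DESeq2 called 1 and 14 genes in SNI against sham on saline and on tianeptine, 1 gene for tianeptine in sham, in SNI and averaged, 22 and 555 for desipramine in sham and in SNI, and 100 for its interaction. The cause was not tested. With the replicate number as a block no member was called; same-numbered libraries had a median correlation of -0.01 (67 pairs, -0.64 to 0.44), and 2 of 30 libraries were closest to their own number, so the numbers did not pair the animals. Counting depth limits the interferon genes, at 34 counts in all.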
